A study of Mus musculus with 16 samples.

Results

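The genes followed here belong to the circadian clock and were measured in RAW264.7 cells, a macrophage-like line grown from a mouse tumour that was induced by a leukaemia virus. They are the 10 genes Per1, Per2, Cry1, Cry2, Nfil3, Bhlhe40, Dbp, Nr1d1, Nr1d2 and Clock, and every non-control probe on the array that carries 1 of these names was taken, which gave 14 probes of 55681. Of the 10 genes, 8 had a probe bright enough to be tested, among 15877 genes tested in all. The names were chosen as genes with short-lived mRNAs, but no decay rate was measured in these samples, so that description was not checked here.

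The study asked how cordycepin acts on inflammatory gene expression. Cordycepin is an adenosine analogue that stops a growing RNA chain once it is built in, and it is used as an inhibitor of polyadenylation. Cells kept in low serum received either the solvent DMSO or cordycepin at 20 μM for 60 min. Either a vehicle control or lipopolysaccharide (LPS) at 1 μg/ml then followed for 60 min more. LPS is a cell wall component of bacteria that activates macrophages. The 4 conditions were DMSO for 120 min (D0), cordycepin for 120 min (C0), DMSO with LPS for the second 60 min (D60, written LPS+DMSO) and cordycepin with LPS for the second 60 min (C60, written LPS+cordycepin). Each had 4 replicates, collected on 4 different days, and each culture was hybridised to its own 1-colour array. All 4 conditions share the 1 cell line, so the days are repeats of that line and not of animals.

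The mammalian clock is a feedback loop of transcription. CLOCK and its partner BMAL1 bind E-box sequences and switch on the Per and Cry genes, whose proteins then enter the nucleus and repress CLOCK and BMAL1. A second loop runs through the nuclear receptors REV-ERBα (Nr1d1) and REV-ERBβ (Nr1d2), which repress from RORE elements, and an output loop through the activator DBP and the repressor NFIL3, which share D-box elements. In macrophages this machinery is known to set daily rhythms in the response to bacterial products, and Per1 also belongs to the genes that answer a stimulus within the first hour in many cell types.

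Per array, 21999 to 30362 of 59305 spots (37.1 to 51.2%) were well above background. The range was 21999 to 26055 on the slide that held replicates 1 and 2 and 27151 to 30362 on the slide that held replicates 3 and 4, and each slide held all 4 conditions. All 8 macrophage markers were well above background on all arrays. Of the other lineages, 0 of 4 fibroblast, 0 of 3 B cell and 0 of 4 epithelial markers reached that mark, while 2 of 4 T cell markers did (Cd3e and Cd4) and Cd3g did so on 0 arrays. Tnf, a cytokine gene that answers LPS, was 6.71 ± 0.12 (SE) higher in LPS+DMSO than in DMSO on the log2 scale, as were Il1b by 7.73 ± 0.37 and Nfkbia by 3.28 ± 0.08, while the reference genes Actb, Gapdh and Rpl28 differed by 0.30 ± 0.10, 0.04 ± 0.11 and 0.01 ± 0.10 and did not pass the test. RNA was taken from whole cultures, so fewer cells of 1 kind and less RNA per cell cannot be told apart.

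Promoter windows from RefSeq (250 bases before to 50 after each start site, build GRCm38.p6) were found for 8 of the 10 genes, with 11 start sites, and not for Per2 and Bhlhe40. The letters CACGTG of the E-box, the element that CLOCK binds, occurred on either strand in 2 of these 11 windows (1 of Per1 and 1 of Cry1) and in 7.15% of 32851 windows of all genes. The half-site AGGTCA, which forms the core of a RORE, occurred in 4 of the 11 windows (1 each of Per1, Clock, Nfil3 and Nr1d2) and in 16.3% of all windows. The search took these letters alone, without the flank of a whole RORE. The stretches are printed to show where the letters lie. They are shown 5′ to 3′ on the gene's own strand, with the matched letters in capitals (on the opposite strand AGGTCA reads TGACCT).
Per1 E-box, 166 bases before the start site, chr11:69098763-69098808, plus strand: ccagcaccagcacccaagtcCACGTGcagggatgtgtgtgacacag
Cry1 E-box, 60 bases before the start site, chr10:85185089-85185134, minus strand: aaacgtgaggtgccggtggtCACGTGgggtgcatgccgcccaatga
Per1 AGGTCA half-site, 137 bases before the start site, chr11:69098792-69098837, plus strand: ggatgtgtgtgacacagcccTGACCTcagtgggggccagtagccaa
Clock AGGTCA half-site, 119 bases before the start site, chr5:76303596-76303641, minus strand: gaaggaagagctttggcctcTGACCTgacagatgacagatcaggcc
Nfil3 AGGTCA half-site, 12 bases before the start site, chr13:52981040-52981071, minus strand: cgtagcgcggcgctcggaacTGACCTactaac
Nr1d2 AGGTCA half-site, 77 bases before the start site, chr14:18239158-18239203, minus strand: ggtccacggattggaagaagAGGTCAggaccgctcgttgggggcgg

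The stretches of Per1 with the E-box and with the AGGTCA half-site overlap, as both lie in the same window. The NF-κB consensus, the element of the main transcription factor downstream of LPS, matched in 2 of the 11 windows, of Cry2 (116 bases before the start site) and Clock (191 bases), and in 8.46% of all windows. None of the 11 windows held the D-box letters TTATGTAA or TTACGTAA (0.938% and 0.119% of all windows), the cyclic AMP response element TGACGTCA (1.79%) or the AP-1 site TGACTCA (5.2%). A match of letters is a description of these windows and does not show that a factor binds there.

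Cordycepin lowered 5 of the 8 tested clock genes in unstimulated cells, where 7.55% of all genes tested fell and 8.23% rose, and 4 of 8 in LPS-treated cells, where 8.45% fell and 10.8% rose. It raised 0 of 8 in either setting. The 5 were Per1, Cry2, Clock, Nfil3 and Dbp, and the 4 were Per1, Cry2, Clock and Nfil3. The clock genes were chosen with earlier results of these data known, so their counts beside the all-gene shares are descriptions. The labelling primes on poly(A) tails, so a fall is one in polyadenylated RNA. With LPS in DMSO, Per1 rose, Cry2 and Dbp fell, and the other 5 did not pass the test (5.14% of all genes rose and 9.8% fell). With LPS in cordycepin, Per1 rose and Cry2 fell (3.54% of all genes rose and 4.61% fell). These calls are at an adjusted p under 0.05 from limma over all genes tested, and the sizes were modest, since only the LPS effect on Cry2 reached 2-fold. With arrays scaled to 7 spiked-in control probes instead, every called direction held, but of these calls only the fall of Cry2 with LPS in cordycepin still passed. Under that scaling fewer genes passed throughout: 0.453% of all genes fell and 3.98% rose with cordycepin alone, and 1.59% and 4.35% in LPS-treated cells. The balance of the all-gene calls turned with the scaling and also with the filter on probes. In LPS-treated cells, 9.32% rose and 11.1% fell with cordycepin under quantile normalization, and 8.76% rose and 12.7% fell with the 75th percentile taken over all probes. With cordycepin alone, 7.45% rose and 9.54% fell under the former, and 7.06% rose and 9.46% fell under the latter. Among genes with a probe well above background on all 16 arrays, in the main scaling, 5.1% rose and 7.91% fell with cordycepin alone. In LPS-treated cells 7.26% of them rose and 8.76% fell.

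**Figure D1:**
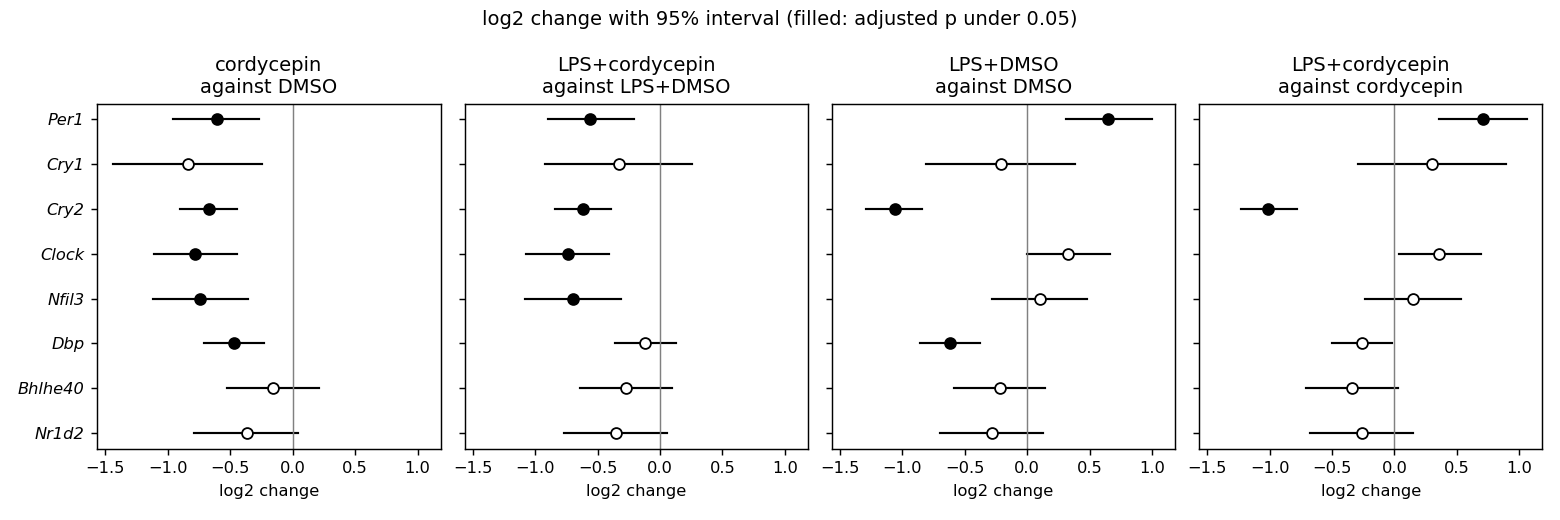
Change of each tested clock gene on the log2 scale (x axis) in the 4 comparisons (panels), with the 95% interval of the limma fit as a line; filled points passed the test at an adjusted p under 0.05. In both cordycepin panels all 8 points lie below 0, between −0.84 and −0.12, and 5 and 4 of them are filled; in the LPS panels Per1 lies above 0 and Cry2 near −1.

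The median change of the 8 tested clock genes was −0.64 with cordycepin alone, beside 0.04 over all genes tested, and −0.46 in LPS-treated cells, beside 0.03. All 8 were below 0 in both comparisons, where 44.0% and 44.5% of all genes tested were. For LPS the medians of the clock genes were −0.22 in DMSO and −0.06 in cordycepin, beside −0.04 and −0.05 over all genes. With the further demand of a 2-fold change, 0 of 8 clock genes were called for cordycepin in either setting, where 5.55% and 7.46% of all genes were, and 1 of 8 (Cry2) for LPS in DMSO and in cordycepin, where 4.59% and 2.91% of all genes were. Cry1 was kept only because it was bright on all 4 DMSO arrays, which by itself favours a lower value elsewhere, so the medians and counts over 8 genes are descriptions. When Cry1 was left out by asking for signal on all 16 arrays, the same numbers of genes passed (5, 4, 3 and 2 in the order of the panels). Cry1 had passed in none of these comparisons, so the equal counts cannot show what its selection did. Medians without Cry1 are not given here. Of all genes under that filter, 5.1% rose and 7.91% fell with cordycepin alone, and 7.26% and 8.76% in LPS-treated cells. With LPS, 4.82% rose and 8.95% fell in DMSO, and 3% and 4% in cordycepin.

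Per1 encodes a repressor of the loop and was read by a probe at chr11:68923364-68923423 (mm9, plus strand, NM_011065). Its log2 signal, set relative to the 75th percentile of each array, was 11.16, 10.45, 11.03 and 10.75 in DMSO replicates 1 to 4, and 10.36, 9.99, 10.36 and 10.22 in cordycepin. All 4 cordycepin arrays lay below all 4 DMSO arrays. It was 11.55, 11.67, 11.32 and 11.46 in LPS+DMSO and 11.00, 10.54, 11.05 and 11.18 in LPS+cordycepin, again without overlap between the groups. Per1 thus had its highest values in LPS+DMSO and its lowest in cordycepin, and the ranges in LPS+cordycepin and DMSO overlapped almost wholly.

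LPS raised Per1 by 0.65 ± 0.16 (SE, adjusted p = 0.012, limma) in DMSO, which is 1.57-fold, and by 0.71 ± 0.16 (adjusted p = 0.0116) in cordycepin. Cordycepin lowered it to 65.3% of DMSO (log2 change −0.61 ± 0.16, adjusted p = 0.0161) and to 67.9% of LPS+DMSO (−0.56 ± 0.16, adjusted p = 0.0239). Each of these changes had the same direction on 4 of 4 days. Within the slides, the cordycepin effect in LPS-treated cells was −0.84 on the slide of replicates 1 and 2 and −0.27 on that of replicates 3 and 4, and leaving out any 1 of the 4 days ended the call (adjusted p = 0.0957, 0.0524, 0.0609 and 0.0602 without replicates 1 to 4), with −0.37 without replicate 2. The cordycepin effect in unstimulated cells was −0.63 and −0.60 within the slides. Of the clock genes that passed, Per1 was the most open to single arrays: its fall in LPS-treated cells passed in 13 of 20 refits that left out 1 array or 1 replicate number, its fall in unstimulated cells in 14, and its LPS response in 19 in DMSO (not without replicate 4) and 17 in cordycepin (not without replicate 1, 3 or 4). The arrays whose loss ended a call were LPS+DMSO replicates 1 and 2 and LPS+cordycepin replicate 2 for the first (adjusted p = 0.0596, 0.0736 and 0.0749) and DMSO replicates 1 and 3 and cordycepin replicate 2 for the second (0.0569, 0.0538 and 0.0607).

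**Figure D2:**
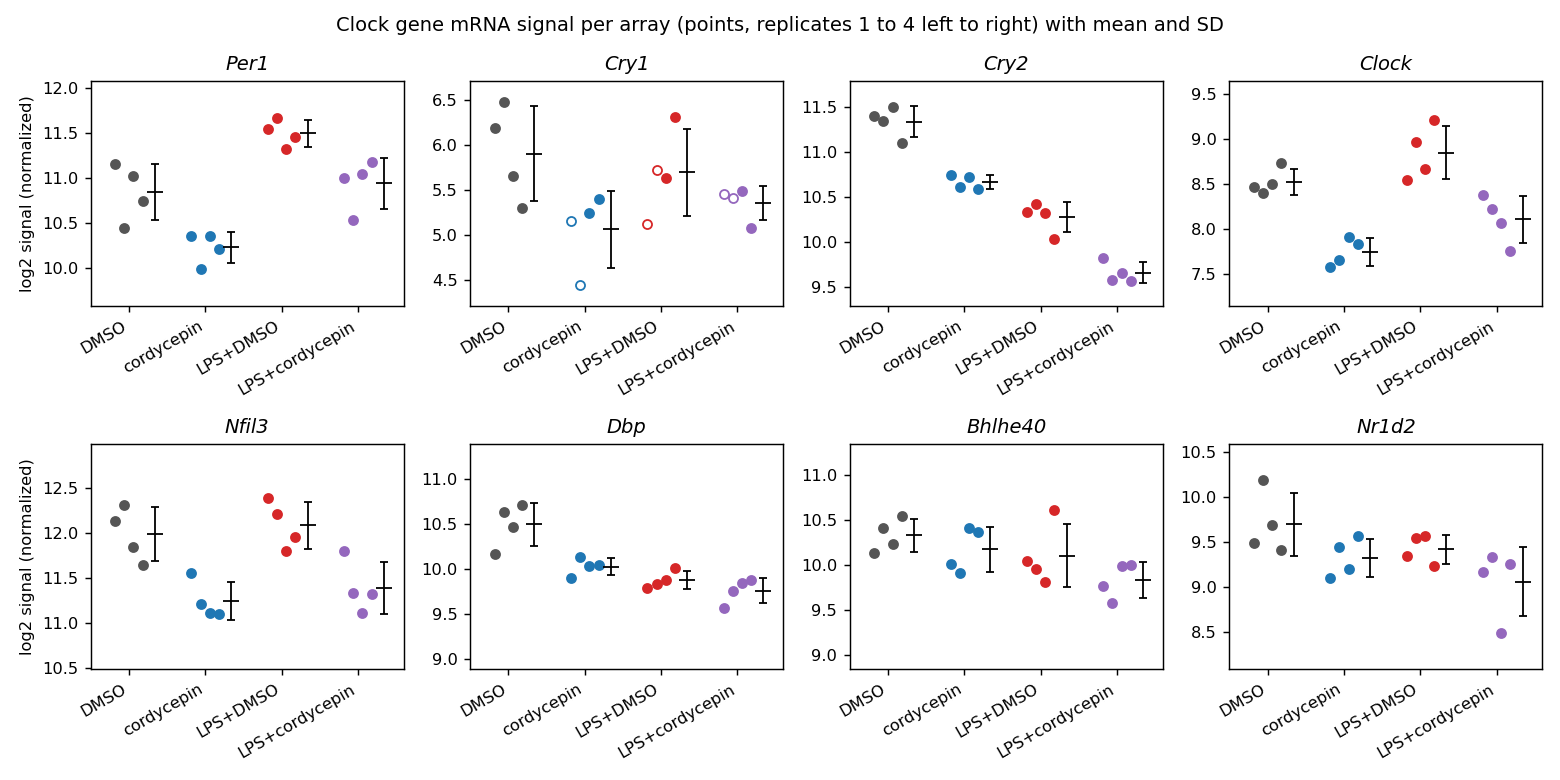
Normalised log2 signal (y axis, each panel spanning the same range of log2 units) of the 8 tested clock genes in every array, with replicates 1 to 4 from left to right in each condition and the mean and SD beside them; open points are arrays on which the probe was not well above background. Cry2 steps down from DMSO (mean 11.34) through cordycepin (10.67) and LPS+DMSO (10.27) to LPS+cordycepin (9.66), while Clock and Nfil3 are low in both cordycepin conditions.

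Cry2 encodes a cryptochrome, a partner of the PER proteins in repression, and varied most among the conditions of all clock genes tested (moderated F = 89.7, adjusted p = 4.38e-08, limma). Its main probe lies at chr2:92243807-92243866 (mm9, minus strand, NM_009963). The log2 signal was 11.40, 11.34, 11.50 and 11.10 in DMSO, and 10.74, 10.61, 10.72 and 10.59 in cordycepin. In LPS+DMSO it was 10.33, 10.42, 10.32 and 10.03, and in LPS+cordycepin 9.82, 9.58, 9.65 and 9.57. The 4 groups did not overlap anywhere, and their order was DMSO, cordycepin, LPS+DMSO, LPS+cordycepin.

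LPS lowered Cry2 to 47.8% of DMSO (−1.06 ± 0.11, adjusted p = 3.59e-06, limma) and to 49.7% of cordycepin (−1.01 ± 0.11, adjusted p = 1.08e-05). Cordycepin lowered it to 62.8% of DMSO (−0.67 ± 0.11, adjusted p = 0.000263) and to 65.2% of LPS+DMSO (−0.62 ± 0.11, adjusted p = 0.000437). Lower values were seen on 4 of 4 days in each of these comparisons, within-slide changes were between −0.56 and −1.13, and no refit without an array or replicate number ended a call. The cordycepin change rests on the main probe, since a second Cry2 probe, described with the probe pairs, did not pass the test for it.

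Cry1, the second cryptochrome, was near background (probe at chr10:84594731-84594790, mm9, minus strand, NM_007771). It was well above background on all 4 DMSO arrays and on 2 of 4 in each other condition, and the arrays without signal were all on the slide of replicates 1 and 2, where 2 of 8 arrays had it. The log2 signal was 6.19, 6.48, 5.65 and 5.30 in DMSO and 5.16, 4.44, 5.25 and 5.40 in cordycepin, with overlapping groups. It was 5.12, 5.72, 5.63 and 6.31 in LPS+DMSO and 5.46, 5.41, 5.49 and 5.08 in LPS+cordycepin. The change with cordycepin was −0.84 ± 0.28 (adjusted p = 0.0526, limma), −1.53 on 1 slide and −0.15 on the other, and it passed without DMSO replicate 4 (adjusted p = 0.0185). It also passed with quantile normalization (−1.17, adjusted p = 0.00821) and with the authors' values (−0.68, adjusted p = 0.0137). In the main fit the probe was kept through the DMSO arrays alone, which by itself favours a lower value elsewhere. These passes are therefore descriptions and no support for a fall of Cry1. The part of the slide in the Cry1 values was not tested.

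Clock encodes the activator that drives the Per and Cry genes (probe at chr5:76641377-76641436, mm9, minus strand, NM_007715). Its log2 signal was 8.47, 8.40, 8.50 and 8.73 in DMSO and 7.58, 7.66, 7.91 and 7.83 in cordycepin. In LPS+DMSO it was 8.55, 8.97, 8.67 and 9.21, and in LPS+cordycepin 8.38, 8.22, 8.07 and 7.76. Cordycepin arrays lay below their vehicle arrays in both settings without overlap.

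The fall of Clock with cordycepin was −0.78 ± 0.15 (SE) in unstimulated cells (adjusted p = 0.00203, limma), to 58.4% of DMSO, and −0.74 ± 0.15 (adjusted p = 0.00243), to 59.9% of LPS+DMSO. Both passed in 20 of 20 refits that left out an array or a replicate number. By day, the difference in LPS-treated cells ran from −0.16 (replicate 1) to −1.45 (replicate 4), a wider spread than in unstimulated cells (−0.59 to −0.89), and within the slides it was −0.45 and −1.02. With LPS, Clock was 0.33 ± 0.15 higher in DMSO (adjusted p = 0.194) and 0.36 ± 0.15 higher in cordycepin (adjusted p = 0.213), neither of which passed the test.

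Nfil3 encodes the D-box repressor, which is also a regulator of cytokine genes in immune cells (probe at chr13:53062578-53062637, mm9, minus strand, NM_017373). The log2 signal was 12.14, 12.32, 11.85 and 11.65 in DMSO and 11.56, 11.21, 11.12 and 11.10 in cordycepin. In LPS+DMSO it was 12.39, 12.21, 11.80 and 11.96, and in LPS+cordycepin 11.80, 11.34, 11.11 and 11.33. The groups with and without cordycepin did not overlap, although in LPS-treated cells the lowest vehicle array and the highest cordycepin array were equal to 2 decimals.

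Cordycepin lowered Nfil3 by 0.74 on the log2 scale (−0.74 ± 0.18, adjusted p = 0.00892, limma), to 59.8% of DMSO, and to 61.8% of LPS+DMSO (−0.70 ± 0.18, adjusted p = 0.0113). It was lower on 4 of 4 days in both, with differences of −0.55 to −1.10 and −0.59 to −0.87, and within the slides of −0.64 to −0.84. Without replicate 2 the adjusted p was 0.0949 and 0.0683, and in LPS-treated cells it was 0.0512 without replicate 3. The LPS difference was 0.10 ± 0.18 in DMSO (95% interval −0.28 to 0.48, adjusted p = 0.816) and 0.15 ± 0.18 in cordycepin (−0.24 to 0.53, adjusted p = 0.778).

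Dbp encodes the D-box activator and is a classical output gene of the clock (main probe at chr7:52965322-52965381, mm9, plus strand, NM_016974). Its log2 signal was 10.17, 10.63, 10.47 and 10.71 in DMSO and 9.90, 10.13, 10.03 and 10.04 in cordycepin. It was 9.79, 9.83, 9.88 and 10.01 in LPS+DMSO and 9.57, 9.75, 9.84 and 9.88 in LPS+cordycepin. DMSO stood above both single treatments without overlap, whereas LPS+DMSO and LPS+cordycepin overlapped.

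LPS lowered Dbp to 65.1% of DMSO (−0.62 ± 0.11, adjusted p = 0.00123, limma), and cordycepin lowered it to 72.1% (−0.47 ± 0.11, adjusted p = 0.00835). In LPS-treated cells the cordycepin difference was −0.12 ± 0.11 (adjusted p = 0.582), and in cordycepin the LPS difference was −0.26 ± 0.11 (adjusted p = 0.225), with groups that did not overlap. The cordycepin call was lost without replicate 2, 3 or 4 (adjusted p = 0.0507, 0.0816 and 0.0643) and with the mean of both Dbp probes (−0.38, adjusted p = 0.0549), and the LPS call in DMSO was kept in 20 of 20 refits. The opposed D-box pair Nfil3 and Dbp thus both fell with cordycepin in unstimulated cells. With LPS, Dbp passed the test and Nfil3 did not, and this difference between the genes was not tested.

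Bhlhe40 and Nr1d2 passed the test in no comparison with their main probes. Bhlhe40 encodes DEC1, a repressor that competes at E-boxes (probe at chr6:108616309-108616368, mm9, plus strand, NM_011498), and its log2 signal averaged 10.33 ± 0.18 (SD, n = 4) for DMSO, 10.17 ± 0.25 for cordycepin, 10.11 ± 0.35 for LPS+DMSO and 9.83 ± 0.20 for LPS+cordycepin. Its groups overlapped in all 4 comparisons, with differences between −0.16 and −0.34. The 95% interval for cordycepin in unstimulated cells was −0.53 to 0.21, so a fall of the size seen in Clock lies outside it. Nr1d2, which encodes REV-ERBβ, averaged 9.70 ± 0.35 for DMSO, 9.33 ± 0.21 for cordycepin, 9.42 ± 0.16 for LPS+DMSO and 9.06 ± 0.39 for LPS+cordycepin (main probe at chr14:19036568-19036627, mm9, minus strand, BC096461). Its interval for cordycepin, −0.79 to 0.04, does include such a fall.

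Per2 and Nr1d1 were not tested. The Per2 probe (chr1:93313046-93313105, mm9, minus strand, NM_011066) was well above background on 2 of 16 arrays, DMSO replicate 2 and cordycepin replicate 1, and at this signal a change in Per2 was not detectable. The Nr1d1 probe (chr11:98630526-98631028, mm9, minus strand, NM_145434) was well above background on 8 of 16, which were 2 in each condition and all on the slide of replicates 3 and 4. On those 8 arrays its log2 signal was 5.66 and 6.12 with DMSO, 6.14 and 5.89 with cordycepin, 5.64 and 5.00 with LPS+DMSO, and 6.65 and 6.47 with LPS+cordycepin. The highest pair was thus in LPS+cordycepin and the lowest array in LPS+DMSO, with 2 arrays a condition and no test. A second Per1 probe (AK081813, chr11:68919895-68919954, mm9, plus strand) was well above background on 0 of 16 arrays and carries no value for Per1.

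**Figure D3:**
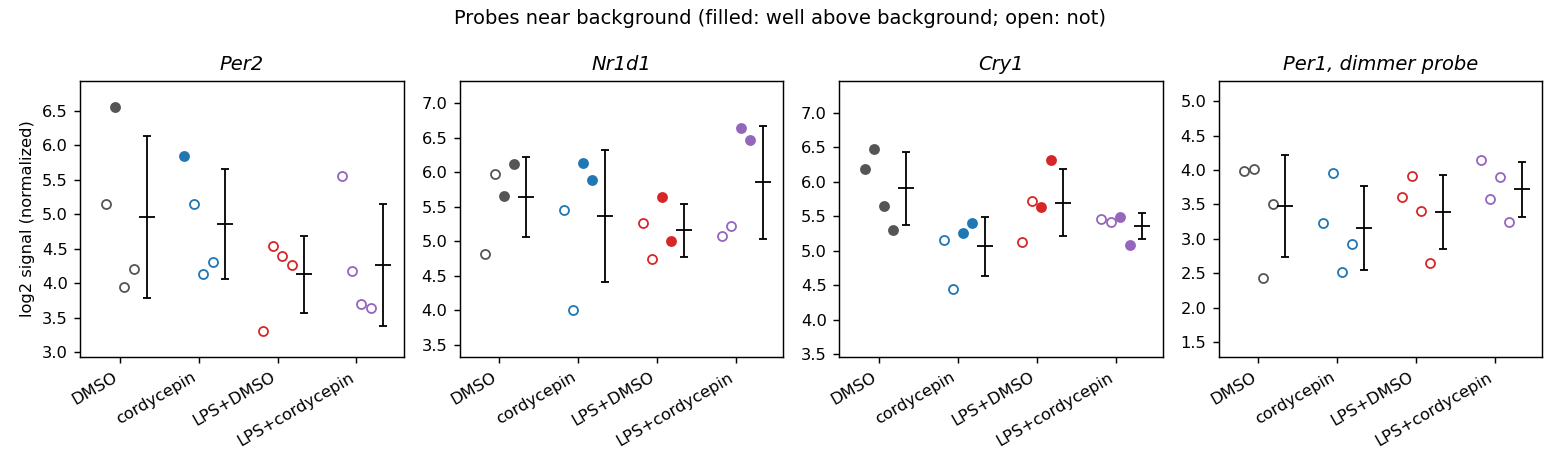
Normalised log2 signal (y axis) of the 4 clock gene probes that were not well above background on all 16 arrays, by condition, with replicates 1 to 4 from left to right and the mean and SD beside them; filled points were well above background and open points were not. Per2 has 2 filled points, Nr1d1 8, Cry1 10 and the dimmer Per1 probe 0, and the filled points of Nr1d1 are all in replicates 3 and 4.

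Whether cordycepin acted differently with and without LPS was tested by the interaction, the difference between the LPS changes of cells with and without cordycepin. None of the 8 clock genes passed it at an adjusted p under 0.05 in limma (1 of 8 at an unadjusted p under 0.05), where 0.554% of all genes did. The interaction was 0.06 for Per1 (95% interval −0.43 to 0.55), 0.06 for Cry2 (−0.26 to 0.37), 0.05 for Nfil3 (−0.49 to 0.59) and 0.04 for Clock (−0.43 to 0.50). For these 4 genes the fitted fall with cordycepin was thus of nearly the same size in both settings, and the intervals leave room for differences of up to 0.59. Dbp had the only interaction with an unadjusted p under 0.05, at 0.36 (0.02 to 0.70, adjusted p = 0.616), and was above 0 on 4 of 4 days. The loss of the cordycepin call for Dbp in LPS-treated cells is therefore not shown to be a difference between the settings.

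**Figure D4:**
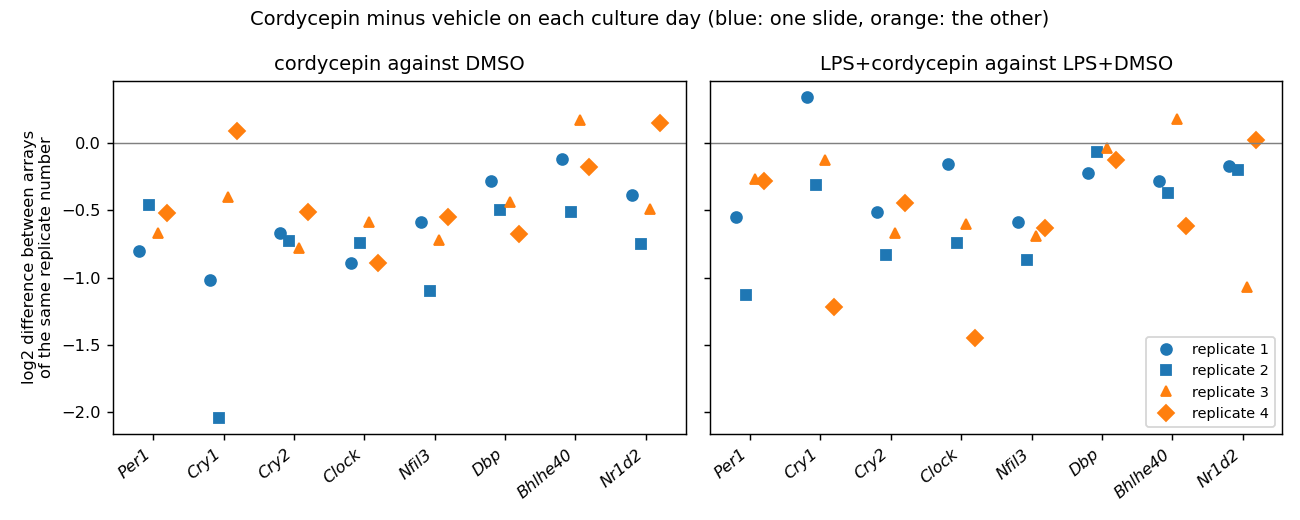
Difference in log2 signal between the cordycepin array and the vehicle array of the same replicate number (y axis) for each tested clock gene, without LPS (left) and with LPS (right); the marker gives the replicate number and the colour the slide. Per1, Cry2, Clock, Nfil3 and Dbp are below 0 on all 4 days in both panels, while Cry1, Bhlhe40 and Nr1d2 have days on both sides of 0.

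Cry2, Dbp and Nr1d2 each had a pair of probes that could both be tested, and the pairs were compared because all other values rest on 1 probe a gene. The second Cry2 probe (NM_001113333, chr2:92251417-92251476, mm9, minus strand) fell with LPS, by a log2 change of −1.31 in DMSO (adjusted p = 1.28e-05 over all kept probes, limma) and −1.33 in cordycepin (adjusted p = 1.9e-05). Its cordycepin changes were −0.21 ± 0.15 (adjusted p = 0.388) and −0.23 ± 0.15 (adjusted p = 0.339), against −0.67 and −0.62 for the main probe. In unstimulated cells the change of the main probe less that of the second was −0.46 (exact permutation test over 4 against 4 arrays, two-sided, p = 0.0571). The LPS fall of Cry2 was therefore seen by both probes, and its cordycepin fall passed in 1 of them.

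The second Dbp probe (chr7:52965461-52965520, mm9, plus strand, NM_016974) fell with LPS (−0.65, adjusted p = 0.00873, limma) and differed by −0.29 ± 0.15 with cordycepin (adjusted p = 0.237). The second Nr1d2 probe (NM_011584, chr14:19037253-19037312, mm9, minus strand) fell with cordycepin in unstimulated cells (−0.57, adjusted p = 0.0367), where the main probe had −0.37 ± 0.19 (adjusted p = 0.237), and was 0.12 ± 0.18 higher in LPS-treated cells (adjusted p = 0.747). Over 12 exact permutation tests of main against second probe (3 genes, 4 comparisons, chosen after the values were seen), the smallest p was 0.0286, the smallest that 4 against 4 arrays can give, and 0 passed after Benjamini-Hochberg adjustment, which this number of tests at this size cannot reach for a single pair.

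**Figure D5:**
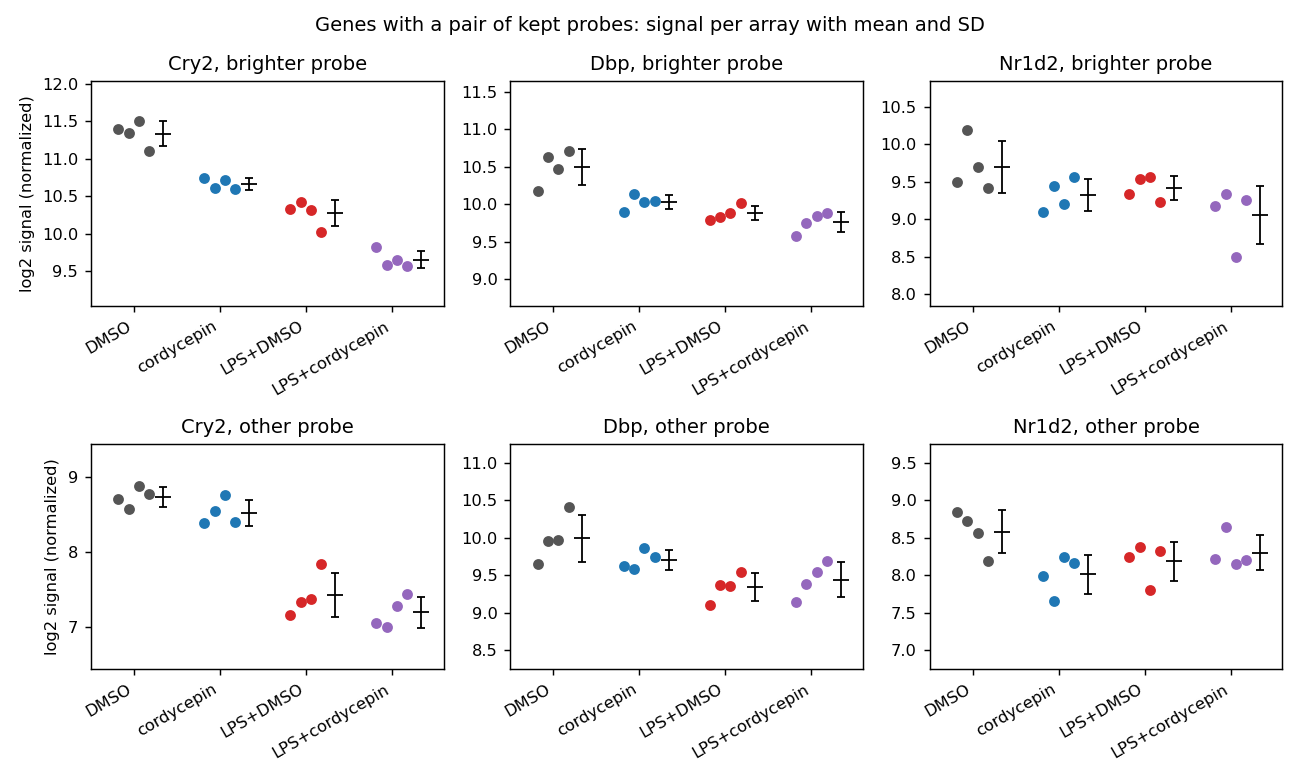
Normalised log2 signal (y axis) of the brighter (top) and other (bottom) probe of Cry2, Dbp and Nr1d2 in every array by condition, with the mean and SD beside the points; all panels span the same range of log2 units, and levels are not comparable between probes. Both Cry2 probes are lower in the LPS conditions, while the step from DMSO to cordycepin is −0.67 in the brighter and −0.21 in the other.

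Of 28 other genes of the clock, 19 were tested. With cordycepin alone 2 rose (Arntl2 and Btrc) and 2 fell (Sirt1 among them), and in LPS-treated cells 2 rose (Arntl2 and Btrc) and 1 fell (Sirt1), with medians of −0.07 and 0.08 beside 0.04 and 0.03 over all genes tested. Of all genes, 8.23% rose and 7.55% fell in the first comparison, and 10.8% and 8.45% in the second. LPS in DMSO raised 1 (Csnk1e) and lowered 3 (Bhlhe41, Tef and Cipc), with a median of −0.05, where 5.14% of all genes rose and 9.8% fell. In cordycepin LPS changed 0 of 19 (limma, adjusted p under 0.05), where 3.54% of all genes rose and 4.61% fell, and the interaction called 0 of 19. Arntl, which encodes BMAL1, was tested and passed in no comparison. Among those with no probe that could be tested were Npas2, Per3, Rora, Rorb, Hlf, Ciart, Fbxl21 and Prkaa2.

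Arntl2, which encodes a paralogue of BMAL1, was 1.96 higher with cordycepin alone (adjusted p = 1.15e-06, limma) and 2.01 higher with cordycepin in LPS-treated cells (adjusted p = 6.16e-07). This came from 1 probe (chr6:146781976-146782035, mm9), and the other 2 Arntl2 probes were well above background on 0 of 16 arrays. Btrc, which encodes an F-box protein that marks PER proteins for degradation, was 1.45 higher (adjusted p = 2.57e-07) and 1.58 higher (adjusted p = 7.54e-08). That too came from 1 probe (chr19:45607701-45607760, mm9), while the other (chr19:45604418-45604477), well above background on 10 of 16 arrays, differed by −0.06 and −0.32. Sirt1, a deacetylase that acts on clock proteins, fell by 0.93 (adjusted p = 0.000433) and by 0.59 (adjusted p = 0.012).

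The LPS effects in DMSO were −0.85 for Bhlhe41, the sister gene of Bhlhe40 (adjusted p = 0.0226, limma), −0.67 for Tef, a relative of Dbp that binds the D-box (adjusted p = 0.0104), −0.65 for Cipc, which encodes an inhibitor of CLOCK (adjusted p = 0.00635), and 0.34 for Csnk1e, a kinase of the PER proteins (adjusted p = 0.0151). The second Bhlhe41 probe had −1.08 and the second Cipc probe 0.02. Dbp and its relative Tef were thus both lower after 60 min of LPS.

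Per1 is often counted among immediate early genes, so its LPS response was set beside a list of 20 of them, of which 19 were tested. LPS raised 18 of 19 in DMSO and 18 of 19 in cordycepin, with median changes of 3.56 and 3.09, where Per1 had 0.65 and 0.71. Of all genes, 5.14% rose with LPS in DMSO and 3.54% in cordycepin. The probes of 7 of the 19 were not well above background on all 16 arrays, and such genes could enter the test through the LPS arrays alone, so their rises are no support for the count. Of the other 12, LPS raised 11 in each setting, with medians of 3.44 and 2.97. Cordycepin lowered 5 of 19 in unstimulated cells and 10 of 19 in LPS-treated cells, with medians of −0.31 and −0.60, where Per1 had −0.61 and −0.56 and where 7.55% and 8.45% of all genes fell. Of the 12 genes well above background throughout, it lowered 5 and 7. The rise of Per1 with LPS was therefore far below the median of the list, while its fall with cordycepin lay near or below that median.

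The genes whose pattern over the 16 arrays was most like those of Cry2 and Per1, the pair of clock genes with the largest F, were found by Pearson correlation among 11601 other genes with a symbol. For Cry2 they were Tab1 (r = 0.987), Dph2 (0.975) and Pex26 (0.973), each lower with LPS (−0.72, −0.76 and −1.39) and lower with cordycepin alone (−0.42, −0.46 and −1.03). For Per1 they were Rlim (r = 0.926), Urb1 (0.926) and Slc2a1 (0.921), each higher with LPS (0.71, 0.53 and 0.66) and lower with cordycepin alone (−0.42, −0.25 and −0.40). The correlations are descriptions over 16 arrays that share 4 conditions, 4 days and 2 slides.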

How the data were processed

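RNA of RAW264.7 cells was measured on 16 Agilent 1-colour arrays (4 conditions, 4 replicates each), grouped by the sample titles. Per the labels and file headers, the authors' scanner files hold an intensity per spot from Agilent Feature Extraction (10.10.1.1 in the submitters' processing notes, which also name limma), already corrected for background and spatial trend but not normalized between arrays. The labelling kit primes on poly(A) tails, so the signal reports polyadenylated RNA. The authors' deposited value table holds log2 values whose normalization is not given in the sources used here, and it served as an alternative.

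From the processed intensity, outlier spots were left out, spots of a probe were averaged, and each array's log2 values were set relative to their 75th percentile over the 18064 probes that were well above background throughout. A probe entered if all 4 arrays of some condition showed it well above background (21597 probes), and the brightest such probe stood for its gene. RefSeq names were found for 27656 probes by accession, 3401 by symbol and 321 by synonym. The other 24303 kept their array names, and positions are on mm9 as the scanner files give them. limma 3.58.1 (R 4.3.3) fitted the mean of each condition on all 16 arrays, with Benjamini-Hochberg adjustment over 15877 genes. On simulated data for LPS+DMSO against DMSO, with 200 changed genes among 15877, 189 (94.5%) were recovered with 8 false calls. The planted changes were all larger than those called for the clock genes, and the noise was drawn independently for each array. Recovery at the sizes reported here was therefore not simulated. Tables and plots were made with Python 3.11.15, numpy 2.4.6, pandas 2.3.3 and matplotlib 3.10.9. The number of arrays limits the precision.

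The 10 clock genes, the lists of 28 other clock genes and 20 immediate early genes, the markers and the motifs were chosen with earlier results of these data known. Named besides the 10 were the other clock genes that passed in any comparison, 3 LPS response genes and 3 reference genes, and the 3 genes most correlated with each of the 2 clock genes of largest F. Untested list members and single markers are named as small counts, chosen after their values were seen. Some results on list members are not reported here.

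The design text ties each replicate number to a culture day, so the numbers pair the samples. Residuals correlated by a mean of 0.20 between arrays sharing a number (−0.06 to 0.44, 20 of 24 pairs over 0.1), by 0.18 between numbers within a slide, and by −0.19 across slides. Settings tried were other scalings (quantile, median, 7 spiked-in probes, percentile of all probes), normexp background correction (offset 50), the authors' table, no filter or a filter on all 16 arrays, other probe summaries, the replicate number or slide as a block, each slide alone, an intensity trend, only the groups compared, the univariate test of the methods, stricter thresholds, and refits without each array or replicate number.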

Additional observations from a re-analysis of the deposited data

How the results depend on the processing

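In no alternative did a clock gene that passed change direction. With the replicate block the counts of clock genes past the test were the same as without it (3 for LPS+DMSO against DMSO, 5 for cordycepin against DMSO, 4 for LPS+cordycepin against LPS+DMSO, 2 for LPS+cordycepin against cordycepin and 0 for the interaction). Of all genes, 18.2%, 18.5% and 21.7% passed for the first 3 with the block. For LPS+cordycepin against cordycepin 4.26% rose and 5.84% fell, and for the interaction 1.31% passed. In this order of the first 4, the counts were 1, 0, 0 and 1 with a 2-fold minimum, 0, 0, 0 and 1 with scaling to the spiked-in controls, and 1, 3, 1 and 1 within the slide of replicates 1 and 2. Of all genes, either direction, 14.9%, 15.8%, 19.2% and 8.15% passed in the main setting, 4.59%, 5.55%, 7.46% and 2.91% with the 2-fold minimum, 3.27%, 4.43%, 5.94% and 2.46% with the spiked-in scaling, and 4.68%, 6.0%, 8.31% and 2.31% within that slide. Within the slide of replicates 3 and 4, 3 passed for cordycepin against DMSO and 2 for LPS+cordycepin against LPS+DMSO. Of all genes, 11.4% and 16.6% passed there. An adjusted p under 0.01 left 2 for LPS+cordycepin against LPS+DMSO and 1 for LPS+cordycepin against cordycepin, and no filter on dim probes left 1 for the latter. Of all genes, 7.82% rose and 5.16% fell in the former at that threshold, and 4.77% passed in the latter. Without the filter 2.22% of all genes passed in the latter. The methods' t-test after Benjamini-Hochberg adjustment called 2 for cordycepin against DMSO, 1 for LPS+cordycepin against LPS+DMSO and 1 for LPS+cordycepin against cordycepin. Of all genes, that test called 6.72% higher and 5.27% lower, 9.08% higher and 7.04% lower, and 6.98% in either direction, respectively. Leaving out 1 array or replicate number gave 2 to 3, 3 to 6, 2 to 4 and 1 to 2. The lowest all-gene shares of these refits, all without replicate 3, were 8.7%, 9.64%, 12.5% and 4.18%.

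The higher calls' share of all calls was 34.4%, 52.2%, 56.0% and 43.4% in this order. For cordycepin against DMSO it moved by over 10 points to 89.8% with the spiked-in scaling and 80.9% with the 2-fold minimum. It also moved to 64.7% within the slide of replicates 3 and 4, and to 39.2% with only probes well above background on all arrays. For LPS+cordycepin against LPS+DMSO it was 73.2% with the spiked-in scaling and 79.6% with the 2-fold minimum. It was 40.8% with the 75th percentile over all probes, 45.7% with quantile normalization and 45.2% with the authors' values. With only probes well above background on all arrays it was 45.3%. For LPS+DMSO against DMSO it was 46.3% with the 75th percentile over all probes and 45.6% with the 2-fold minimum. Within the slide of replicates 1 and 2 it was 44.5%. For LPS+cordycepin against cordycepin it was 54.5% with normexp, 58.0% with the 2-fold minimum and 62.1% within that slide. The lower counts within a slide come with fewer arrays, and for the spiked-in scaling and the methods' t-test the cause was not tested. The spiked-in scaling kept every called direction, with all-gene medians of −0.14, 0.10, −0.12 and −0.36. Of the gene-level values under all alternatives, 1449 kept their side of the threshold, 80 lost a call and 10 gained one. The 1449 include values that passed in neither setting, and a loss can occur only where the main setting made a call. The methods' t-test and the fit of only the groups compared were not run for the interaction. Signal over background limits Cry1, Per2 and Nr1d1 most.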
